A study of Homo sapiens with 8 samples.

Results

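Ribosome profiling sequences the mRNA fragments that ribosomes shield from nuclease, and the fragments counted on a coding sequence give its ribosome density. The comparison described here set HEK293T cells kept overnight in medium without leucine (Leu-) against cells kept in the amino acid-sufficient control medium (Suff), both treated with cycloheximide (CHX) before collection. HEK293T is a cell line from human embryonic kidney, immortalised with SV40 large T antigen, and CHX is a drug that stops elongating ribosomes on the mRNA. Both media were made from the same amino acid-depleted DMEM with dialysed serum. In the control all missing amino acids, leucine among them, were added back, and the deficient medium lacked leucine only. Each condition was 1 library, from 1 cell line, so 2 of the 8 libraries of the series were compared and no value has a replicate error. Genes were chosen by a rule on level and on listing in both libraries. The highest transcript of each gene symbol was taken, and genes listed in both libraries with a mean of at least 10 RPKM were kept. RPKM divides the reads on a coding sequence by its length and by the coding reads of its library in total, so levels can be compared between genes. Of the 8629 genes listed in either library, 5036 entered the comparison.

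Leucine is an essential amino acid that cells both incorporate and sense. When it runs short, uncharged tRNA activates the kinase GCN2, which phosphorylates the initiation factor eIF2, lowers general initiation and raises translation of the transcription factor ATF4. ATF4 then drives genes for amino acid synthesis, amino acid transport and tRNA charging, the programme called the integrated stress response. In parallel, leucine is sensed through Sestrin2 and the Rag GTPases by the kinase complex mTORC1, whose activity sustains translation of mRNAs that begin with a 5′ terminal oligopyrimidine (TOP) tract, chiefly those of ribosomal proteins and elongation factors.

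The Leu- library held 6434043 reads on coding sequences and the Suff library 2560280, and neither listed an mRNA with fewer than 64 reads. At these depths 3344 genes were listed only in the Leu- library and 18 only in the Suff library. For the genes compared, the median read count was 171 in Suff and 494 in Leu-, and the median counting error of a log2 ratio was 0.13 (SE). Intervals and errors given here cover the counting of reads only, and they are too small where reads are PCR copies of each other. Of 9 markers listed for HEK293 cells VIM, NEFL, NEFM, CDH2 and LIN28B were compared, 2 more were listed only in Leu- and 2 in neither library. None of the 9 haematopoietic, hepatocyte and muscle markers was listed in either library. The fibroblast marker COL1A1 was listed only in Suff, at 20.2 RPKM, from 227 reads, and the other 2 fibroblast markers in neither.

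Sequences of a pair of kinds are shown, because they are the elements by which the ribosomal protein, elongation factor and ATF4 groups are known. The first are mRNA starts, from the 10 bases before the RefSeq start to the 20 from it on (RefSeq, GRCh38.p14). Capitals mark the run of C and T that begins at the start itself. The first 3 belong to ribosomal protein genes whose density was lower in Leu-, and the last 2 to elongation factor genes whose density was higher. The ribosomal protein starts were picked from genes with a run of at least 5 bases. RPS28 and RPS15, with log2 ratios of -2.52 and -2.33, have no such run at their start.
RPS19 (chr19:41860245-41860274, plus strand): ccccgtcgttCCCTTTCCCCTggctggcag
RPL37A (chr2:216498834-216498863, plus strand): gcgtctcttcCTTTCTgggctcggacctag
RPS12 (chr6:132814559-132814588, plus strand): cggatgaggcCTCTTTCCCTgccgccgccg
EEF2 (chr19:3985444-3985473, minus strand): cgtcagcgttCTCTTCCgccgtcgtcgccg
EEF1A1 (chr6:73521013-73521042, minus strand): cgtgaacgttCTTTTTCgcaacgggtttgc

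The second are 30 bases around a match to TGATGNAA, the form of the element bound by ATF4 with a C/EBP partner, in the window from 250 bases before to 50 after the RefSeq start. Capitals mark the match, which in SLC3A2 lies on the opposite strand and therefore reads as its reverse complement.
ASNS (chr7:97872458-97872487, minus strand): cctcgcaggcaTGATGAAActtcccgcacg
SLC3A2 (chr11:62881719-62881748, plus strand): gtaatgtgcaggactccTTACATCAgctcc
SLC7A1 (chr13:29595663-29595692, minus strand): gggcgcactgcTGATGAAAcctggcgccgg
NARS1 (chr18:57621804-57621833, minus strand): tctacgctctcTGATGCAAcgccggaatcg

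Most genes kept their share of ribosomes within 2-fold. The log2 ratio of Leu- over Suff, taken on RPKM + 1, had a median of 0.02, an interquartile range from -0.46 to 0.57 and an SD over genes of 0.78, and 81.0% of genes lay within 2-fold. A density at least 2-fold higher in Leu- was found for 603 genes (12% of those compared) and at least 2-fold lower for 356 (7.07%). At 4-fold these counts were 65 and 17. RPKM is relative to the reads of the same library, so a fall of translation that touched all mRNAs alike would leave these ratios at 0. The series has footprint libraries only, without a measure of mRNA amount. A changed density can therefore reflect more or less mRNA as well as more or fewer ribosomes on each mRNA, and these cannot be told apart here. FBRS, at a mean of 10.08 RPKM, was the gene just inside the minimum, and PACS2, at 9.999 RPKM, the one just outside.

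**Figure D1:**
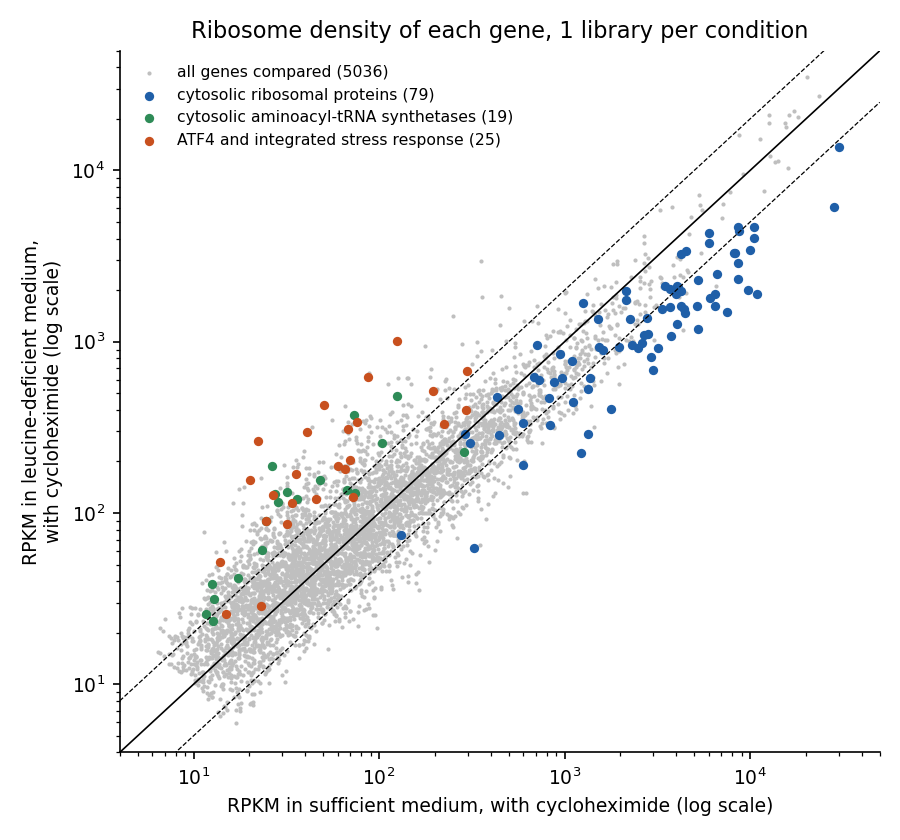
RPKM of each of 5036 genes in sufficient medium (x axis) and leucine-deficient medium (y axis), both with CHX and both on log scales, with 1 library per condition. Solid line, equal values; dashed lines, 2-fold. Ribosomal protein mRNAs (79) lie mostly below the lower dashed line, and ATF4 (25) and aminoacyl-tRNA synthetase (19) mRNAs mostly above the upper one.

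mRNAs of the ATF4 programme were higher in Leu- in every case that could be compared. Of the 44 genes of the list, 25 were compared, 13 were listed only in Leu- and 6 in neither library. Of all 8629 genes listed in either library, 3344 were listed only in Leu-, the deeper one. All 25 had a ratio above 0, 20 were at least 2-fold higher and none was 2-fold lower, beside 12% and 7.07% of all genes. The median log2 ratio was 1.74 beside 0.02 over all genes. The 25 compared genes held 0.225% of coding reads in Suff (95% Wilson interval 0.219 to 0.231) and 0.759% in Leu- (0.752 to 0.766).

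ASNS, which makes asparagine, had the largest ratio of the 5036 genes. It was at 22.3 RPKM in Suff, from 96 reads, and at 262 RPKM in Leu-, from 2839 reads, a log2 ratio of 3.50 ± 0.15 (counting SE). STC2, a secreted glycoprotein of the stress response, went from 50.4 to 429 RPKM (3.06 ± 0.14). PSAT1, a transaminase of serine synthesis, went from 125 to 1006 RPKM (3.00 ± 0.08). SHMT2, which makes glycine and one-carbon units from serine in mitochondria, went from 40.8 to 298 RPKM (2.84 ± 0.12). ASNS, PSAT1 and SHMT2, which make amino acids, thus had larger ratios than the factor ATF4.

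ATF4 itself was at 76.0 RPKM in Suff and 342 RPKM in Leu- (2.16 ± 0.11). Its relative ATF3 had nearly the same ratio, from 68.3 to 310 RPKM (2.17 ± 0.15), and TRIB3, a pseudokinase that restrains ATF4, went from 26.9 to 127 RPKM (2.20 ± 0.17). The partners CEBPB (1.45) and CEBPG (1.38) had smaller log2 ratios. SESN2, which encodes the leucine sensor Sestrin2, went from 20.1 to 157 RPKM (2.90 ± 0.17), and DDIT4, an inhibitor of mTORC1, from 87.5 to 622 RPKM (2.81 ± 0.12). The smallest ratios of the list belonged to PPP1R15B (0.29), a subunit of the phosphatase that resets eIF2, and PYCR1 (0.44), of proline synthesis.

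**Figure D2:**
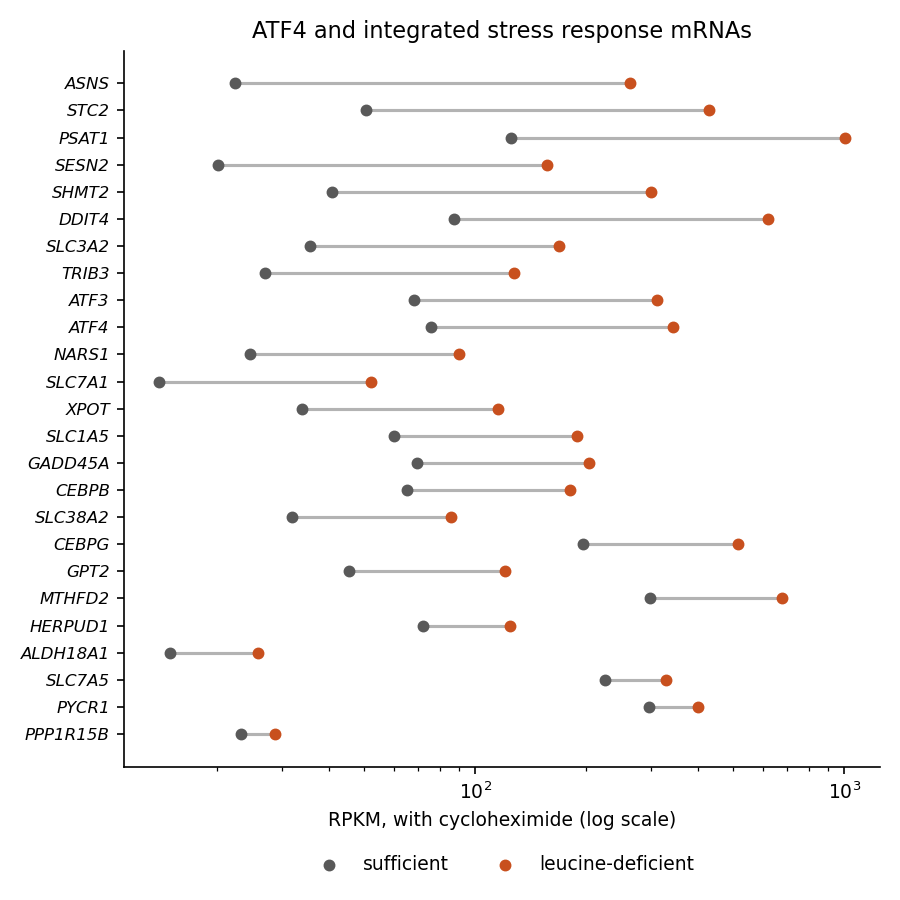
RPKM of the 25 compared mRNAs of the ATF4 and integrated stress response list (one per row) in sufficient (grey) and leucine-deficient medium (orange), with CHX, on a log scale. The orange point lies to the right in all 25, from PPP1R15B (log2 ratio 0.29) at the bottom to ASNS (3.50) at the top.

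For a gene listed only in Leu-, its RPKM there was set against the RPKM that 64 reads would have given in Suff, which gives a lower bound. By that measure NUPR1, a small stress-induced chromatin protein, was at least 5.17-fold higher, at 525 RPKM. PCK2, mitochondrial phosphoenolpyruvate carboxykinase, was at least 4.96-fold higher and CTH, of cysteine synthesis, at least 4.47-fold. PHGDH, the entry enzyme of serine synthesis, was at least 3.44-fold higher, SLC7A11, the cystine carrier, at least 2.47-fold and DDIT3, the factor CHOP, at least 2.38-fold. VLDLR and JDP2 were also listed only in Leu- but below the level that 64 reads give in Suff, so no fold is given. The largest bound of all 3344 such genes was that of PDCD4, an inhibitor of the helicase eIF4A, at 6.48-fold from 1042 reads. In all, 207 of these 3344 genes had a bound of at least 2-fold. All 18 genes listed only in Suff also passed 2-fold, but the depths of the libraries fix this in advance. RAB3A, with 64 reads in Suff, the fewest listed, already had a bound of 2.51-fold.

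The enzymes that charge tRNAs were higher as a group. Of 23 genes for cytosolic aminoacyl-tRNA synthetases and their scaffold, 19 were compared, 16 were at least 2-fold higher and none 2-fold lower, with a median of 1.55. TARS1, the threonine enzyme, went from 26.7 to 187 RPKM (2.77 ± 0.12), SARS1, the serine enzyme, from 73.4 to 372 RPKM (2.33 ± 0.09), and IARS1, the isoleucine enzyme, from 27.6 to 128.5 RPKM (2.18 ± 0.09). LARS1, which charges leucine and also takes part in sensing it, went from 12.95 to 31.3 RPKM (1.21 ± 0.14) and stood in the lower part of the group. The scaffold protein AIMP2 was the 1 member below 0, at -0.34. Leaving out NARS1, which is also on the ATF4 list, 15 of 18 were 2-fold higher. Among 9 synthetases of mitochondria 1 was 2-fold higher, near the 12% over all genes, and the median was 0.43.

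Of 9 amino acid carriers compared 8 were above 0 and 6 at least 2-fold higher, with a median of 1.40. SLC7A6, a light chain of the same transporter family, was below 0, from 30.8 to 21.1 RPKM (-0.53 ± 0.16). SLC3A2, the heavy chain shared by several carriers, went from 35.7 to 169 RPKM (2.21 ± 0.11). SLC7A5, the light chain with which it takes up leucine, went from 224 to 329 RPKM (0.55 ± 0.06) and was under 2-fold. The arginine and lysine carrier SLC7A1 had a log2 ratio of 1.83 and the glutamine carriers SLC1A5, SLC38A1 and SLC38A2 had 1.63, 1.45 and 1.40. Of these 9 genes 5 are also on the ATF4 list, and of the other 4 genes 2 were 2-fold higher. Genes of serine, glycine and one-carbon metabolism had 6 of 11 members 2-fold higher and 1 lower, the glycine cleavage protein GCSH at -1.35. Beside these carriers and enzymes, 12% of all genes were 2-fold higher and 7.07% lower.

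The match to TGATGNAA was found in the promoter window of 7 of 21 compared genes of the ATF4 list that had a RefSeq promoter. It was found in 68 of 4217 such windows over all compared genes (1.61%), and in 3.67% of all 27305 RefSeq promoters. Across the 68 genes the median log2 ratio was 0.21 and 25% were 2-fold higher, beside 0.03 and 12.1% across the 4149 without a match. With the ATF4 list left out, 61 genes had a match, of which 19.7% were 2-fold higher. A match is a description of the letters in the window. STC2, PSAT1 and SESN2, which followed ASNS in the order of the list's ratios, had none.

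Ribosomal protein mRNAs had the lowest median of the 27 groups. Of 83 genes for cytosolic ribosomal proteins 79 were compared, and 76 of them were below 0. At least 2-fold lower were 47, beside 7.07% over all genes, and none was 2-fold higher, beside 12%. The median log2 ratio of the 79 was -1.17. Their median density was 2980 RPKM in Suff and 1366 RPKM in Leu-. In Suff the group held 13.5% of coding reads (95% Wilson interval 13.43 to 13.51), and in Leu- 5.76% (5.74 to 5.77). Both subunits were alike in this, with 21 of 32 small-subunit and 26 of 46 large-subunit mRNAs at least 2-fold lower.

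RPS28 was the lowest of all 5036 genes, at 10931 RPKM in Suff and 1901 RPKM in Leu- (-2.52 ± 0.03). RPS19 went from 9772 to 1999 RPKM (-2.29 ± 0.02), RPS15 from 7496 to 1494 RPKM (-2.33 ± 0.03) and RPL37A from 28295 to 6098 RPKM (-2.21 ± 0.02). RPL41, the shortest of them and in Suff the densest mRNA of the library, went from 30096 to 13733 RPKM (-1.13 ± 0.03). The 3 members above 0 were RPL4 at 0.43, RPL15 at 0.42 and RPS27L, a paralogue of RPS27, at 0.13. Ribosomal protein genes have many near-identical copies in the genome, and the authors kept uniquely mapped reads only, so single values of this group are uncertain.

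Other mRNAs known to begin with a TOP tract had a median on the other side of 0. Of 19 compared, 8 were at least 2-fold higher and 1 lower, beside 12% and 7.07% of all genes, and the median was 0.86. TPT1, a small growth-related protein, was the lower one, from 944 to 355 RPKM (-1.41 ± 0.05). The elongation factors EEF2 and EEF1A1 went from 230 to 606 RPKM (1.39 ± 0.04) and from 203 to 514 RPKM (1.33 ± 0.06). NPM1, a nucleolar chaperone, went from 456 to 1849 RPKM (2.02 ± 0.05), and PABPC1, the poly(A)-binding protein, from 55.7 to 75.7 RPKM (0.44 ± 0.10). EEF1B2 and RACK1 stood near 0, at -0.08 and 0.27.

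These groups shared the start sequence itself, as the starts shown above have it. A C followed by at least 4 further pyrimidines at the RefSeq start was found in 42 of 63 ribosomal protein promoters and 11 of 13 of the other TOP genes, beside 4.04% of all promoters. Of the 42 ribosomal protein genes with such a start 26 were 2-fold lower, and of the 21 without it 52.4% were. The 254 other compared genes with such a start had a median of 0.11, beside 0.05 for the 3900 without. The groups also differ in coding length, with a median of 435 nucleotides for ribosomal proteins and 1335 for the other TOP mRNAs, beside 1056 over all genes.

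Coding length moved with the ratio across the genes compared. Listing needed 64 reads, so a short gene had to be denser to be compared, most of all in Suff, the shallower library. In Suff 64 reads are 101.6 RPKM for NUPR1, of 246 nucleotides, and 7.26 RPKM for RFC1, of 3444. What part this minimum has in the trend, or in values centred on length, was not tested. With genes divided into quintiles of coding length, the median log2 ratio went from -0.44 in the shortest through -0.20, 0.07 and 0.36 to 0.42 in the longest. At least 2-fold lower were 18.2% of the shortest quintile and 1.69% of the longest, and at least 2-fold higher 2.78% and 19.7%. Spearman's rho across the 5036 genes was 0.41 (Pearson r 0.31) and was 0.40 with the ribosomal proteins left out. Genes are not independent replicates and all share the same pair of libraries. GC content of the coding sequence also moved with it, with medians from 0.41 in the quintile with the lowest GC to -0.37 in the highest and a rho of -0.35. What part either has in the gene groups was not tested beyond centring. When each ratio was centred on the median of genes in the same quintile of coding length, the ribosomal proteins had a median of -0.83 with 25 of 79 genes 2-fold lower, the ATF4 list 1.48, the synthetases 1.13 and the other TOP mRNAs 0.46. Over all genes centred on length, 6.57% were 2-fold lower and 8.66% higher. Centred within quintiles of GC content the ribosomal proteins had -1.25 and the ATF4 list 1.82.

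**Figure D3:**
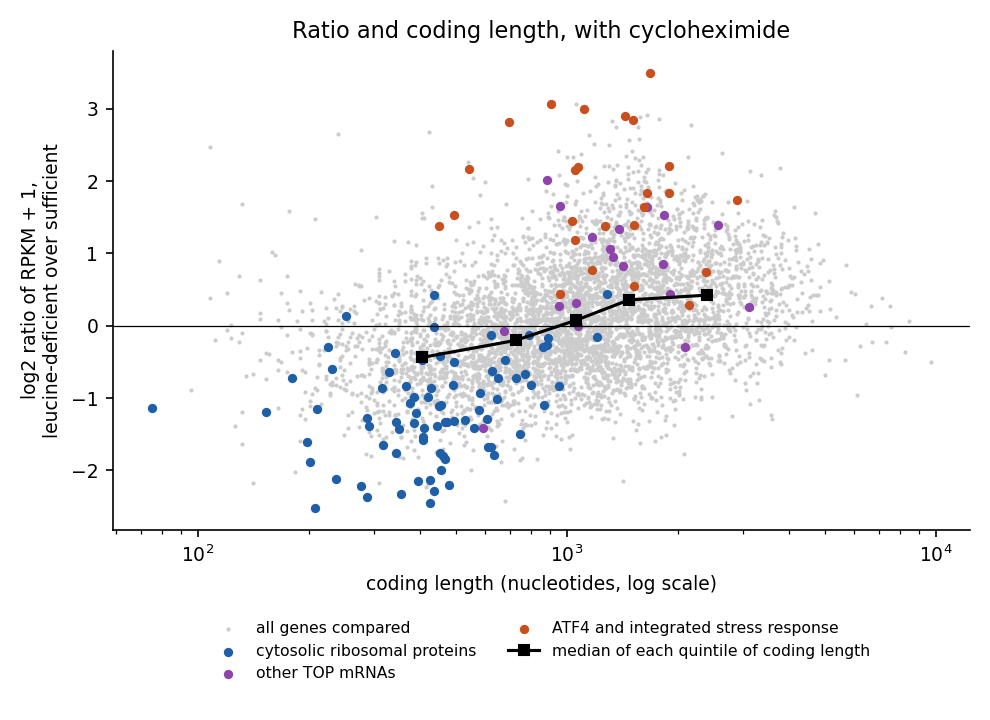
Log2 ratio of RPKM + 1, leucine-deficient over sufficient with CHX (y axis), against coding length in nucleotides (x axis, log scale) for 5036 genes. Black squares are medians of quintiles of coding length, going from -0.44 to 0.42; ribosomal proteins (blue) lie mostly below this line, ATF4 (orange) and other TOP mRNAs (purple) mostly above it.

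The content of leucine codons was examined because leucine was the missing amino acid. The share of leucine among codons had a rho of -0.08 with the ratio across 5036 genes, and medians by quintile were between -0.12 and 0.09. The 6 leucine codons differed among themselves. The share of TTA had a rho of 0.31, CTT 0.23, TTG 0.19 and CTA 0.17, while CTC had -0.22 and CTG -0.27. The codons that end in A or T and TTG had positive values and the 2 that end in C or G after CT had negative ones, the same order as for GC content, and the part of GC content in them was not tested.

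Genes that act in leucine sensing did not move as 1 group. Of 46 on the list 20 were compared, 19 were listed only in Leu- and 0 only in Suff. Of all 8629 genes listed in either library, 3344 were listed only in Leu- and 18 only in Suff. Of the 20 compared, 3 were 2-fold higher and 3 lower, beside 12% and 7.07% over all genes, and their median was -0.30. Beside SESN2 and LARS1 the third higher one was LAMTOR3 (1.16 ± 0.14), a subunit of the Ragulator complex that anchors the Rag GTPases to the lysosome. The lower ones were EIF4EBP2, a repressor of cap-dependent initiation, from 187 to 51.8 RPKM (-1.83 ± 0.17), AKT1S1, the inhibitory mTORC1 subunit PRAS40, from 237.5 to 92.1 RPKM (-1.36 ± 0.10), and RHEB, the GTPase that activates mTORC1, from 260 to 127.8 RPKM (-1.02 ± 0.10). EIF4EBP1, the main repressor of this family, went from 780 to 947 RPKM (0.28 ± 0.06).

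Of 16 compared genes that break down branched-chain amino acids, leucine among them, 13 were above 0 and 3 below. At least 2-fold higher were 7 and none was 2-fold lower, beside 12% and 7.07% of all genes, and the median was 0.71. BCAT1, the cytosolic transaminase that takes the first step, went from 46.9 to 173 RPKM (1.86 ± 0.13), and BCKDHA, a subunit of the dehydrogenase that commits the carbon to oxidation, from 23.4 to 108 RPKM (2.16 ± 0.17). PCCB, of propionate use, had the largest ratio, from 17.5 to 138 RPKM (2.91 ± 0.17). BCKDK, the kinase that switches the dehydrogenase off, was the lowest, from 117 to 59.6 RPKM (-0.96 ± 0.10), and ECHS1 and HSD17B10 had -0.36 and -0.29.

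**Figure D4:**
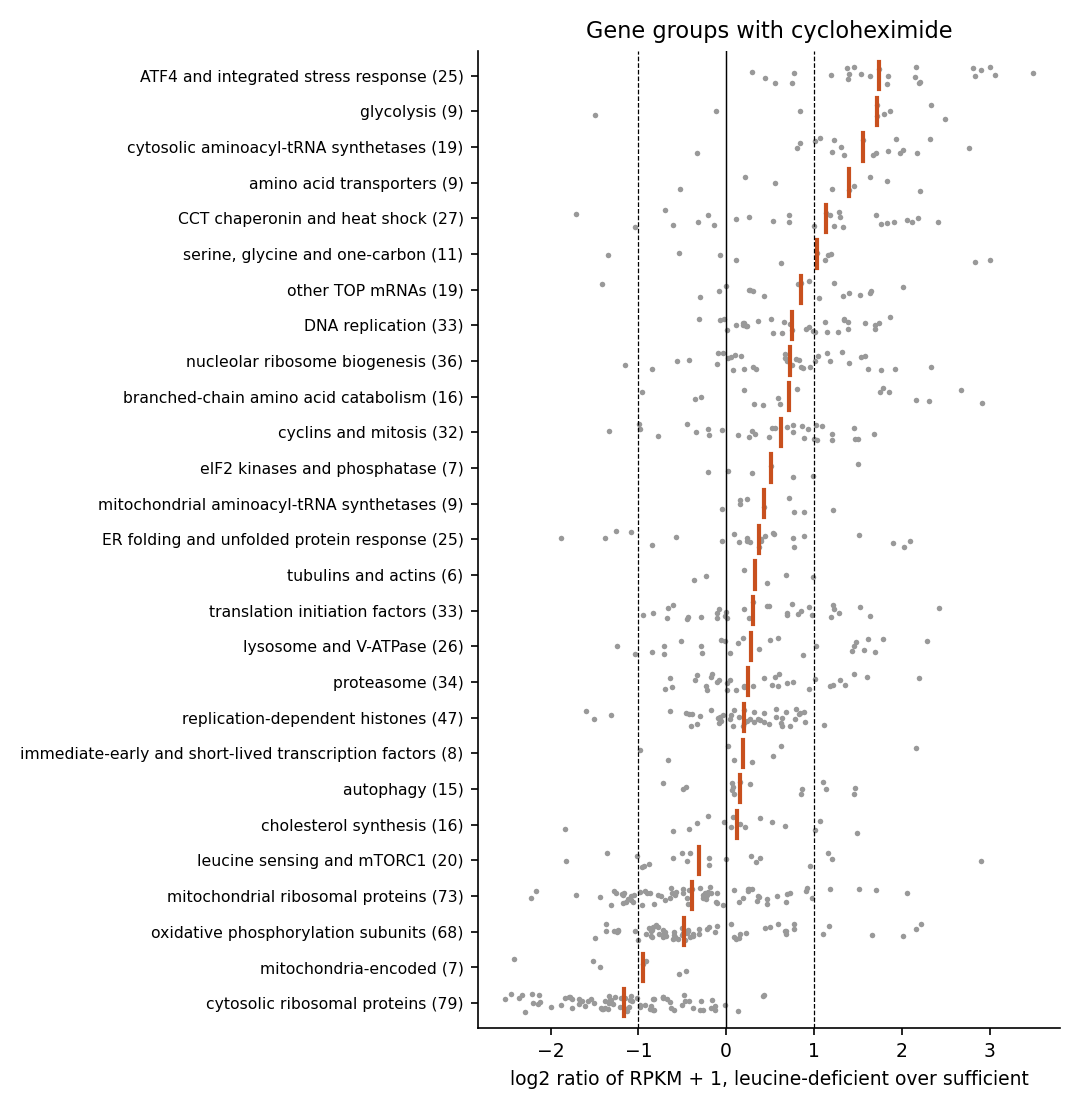
Log2 ratio of RPKM + 1, leucine-deficient over sufficient with CHX (x axis), for the compared genes of 27 gene groups (rows, number of genes in parentheses). Grey points are genes, the orange bar is the group's median and the dashed lines mark 2-fold; medians run from -1.17 for cytosolic ribosomal proteins to 1.74 for the ATF4 list.

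Several groups outside amino acid metabolism were also higher with CHX. Their counts stand beside 12% of all compared genes 2-fold higher and 7.07% lower. Of 9 glycolysis genes 6 were 2-fold higher and 1 lower, with a median of 1.72. ENO1, enolase, went from 250 to 1416 RPKM (2.49 ± 0.05) and LDHB, lactate dehydrogenase B, from 360 to 1819 RPKM (2.33 ± 0.05), whereas PGAM1, phosphoglycerate mutase, went from 440 to 156 RPKM (-1.49 ± 0.07). Among chaperones 14 of 27 were 2-fold higher and 2 lower, with a median of 1.14. The higher ones included 5 of the 8 subunits of the chaperonin CCT, led by CCT7 from 177 to 945 RPKM (2.41 ± 0.06). The lower ones were DNAJB1 at -1.71 and HSPA8 at -1.04, both of the Hsp70 system. DNA replication genes had 13 of 33 members higher and none lower, with a median of 0.75, led by RPA1 at 1.86. Nucleolar ribosome biogenesis factors had 12 of 36 higher and 1 lower, with a median of 0.72. Centred within quintiles of coding length, the medians were 1.45 for glycolysis, 0.72 for chaperones, 0.63 for DNA replication and 0.39 for nucleolar factors. Then 6 of 9, 9 of 27, 9 of 33 and 6 of 36 were 2-fold higher, beside 8.66% of all genes centred in this way.

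The ratios were also ranked among the 3077 genes with enough reads in both libraries, and the 12 highest and 12 lowest were taken. The highest included PSAT1, SHMT2, DDIT4, TARS1, ENO1, CCT7 and DMKN. HNRNPA2B1, a splicing and transport factor, went from 353 to 2976 RPKM (3.07 ± 0.05) and was the highest of the 12. KHDRBS1 had a log2 ratio of 2.84, NONO 2.63 and SF3B2, a subunit of the spliceosome, 2.39. DMKN, at 2.47, was measured on different transcripts in the libraries, as were 27 genes in all. The 12 lowest were RPS28, RPS20, RPS15, RPS19, RPL37A, RPL21 and RPS12, the mitochondrial ribosomal protein MRPS12 (-2.22), MT-ATP6, PTRHD1, STMP1 and HYAL2.

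Mitochondrial ribosomal proteins and oxidative phosphorylation subunits had medians below 0, whereas the synthetases of mitochondria, above, had 0.43. Of 73 mitochondrial ribosomal proteins 17 were 2-fold lower and 4 higher, with a median of -0.39. Of 68 subunits of oxidative phosphorylation 9 were lower and 6 higher, with a median of -0.48. Without centring, 7.07% of all genes compared were lower and 12% higher. ATP synthase shows both, with ATP5F1A from 66.4 to 301 RPKM (2.17 ± 0.09) and the c-ring subunit ATP5MC1 from 2101 to 745 RPKM (-1.49). Centred within quintiles of coding length the medians of the 73 and the 68 were -0.13 and -0.06. Then 9 ribosomal proteins were lower and 7 higher, and 2 subunits lower and 6 higher. Over all genes centred in this way 6.57% were lower and 8.66% higher. All 7 compared mRNAs encoded by the mitochondrial genome, which mitochondrial ribosomes translate, were below 0, with a median of -0.94. MT-ATP6 was the lowest, from 350 to 64.6 RPKM (-2.42 ± 0.10).

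Replication-dependent histone mRNAs took a large share of reads in both libraries. The 47 compared held 12.1% of coding reads in Suff (95% Wilson interval 12.05 to 12.13) and 14.6% in Leu- (14.57 to 14.62). Of these 1 was 2-fold higher, H2AC8 at 1.12, and 3 lower, beside 12% and 7.07% of all genes, and the median was 0.21. Centred within quintiles of coding length the median was 0.64, with 13 higher and 2 lower, beside 8.66% and 6.57% of all genes. H3C2 went from 23566 to 27170 RPKM (0.21 ± 0.01) and H4C3 from 20356 to 34941 RPKM (0.78 ± 0.01). Histone copies differ by few bases, so uniquely mapped reads divide among them uncertainly.

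The remaining groups had medians between 0.12 and 0.63. Over all genes compared 12% were 2-fold higher and 7.07% lower. Translation initiation factors had 7 of 33 members higher and none lower, with a median of 0.31 and EIF2S1, the subunit of eIF2 that is phosphorylated, at the top from 38.9 to 212 RPKM (2.42 ± 0.15). Proteasome genes had 8 of 34 higher and none lower (median 0.25), lysosome and V-ATPase genes 9 of 26 higher and 2 lower (0.28), and autophagy genes 4 of 15 higher and none lower (0.16), among them the cargo receptor SQSTM1 at 1.47. Genes of ER folding and the unfolded protein response had 4 of 25 on each side (0.38), with CANX at 2.09 and XBP1 at 2.03 higher and SDF2L1 at -1.88 lower. Cholesterol synthesis had 3 of 16 higher and 1 lower (0.12), the lower one being INSIG1 at -1.83, which holds back the sterol sensor. Cyclins and mitosis genes had 10 of 32 higher and 1 lower, CCND1, cyclin D1, at -1.34 (0.63). Genes of the eIF2 kinases and phosphatase had 1 of 7 higher (0.51) and immediate-early factors 1 of 8 (0.19), both near the 12% over all genes. The higher immediate-early factor was ATF3, also on the ATF4 list, and of the other 7 factors 0 were higher. Tubulins and actins had 0 of 6 on either side (0.33).

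The same medium was also profiled without CHX, in a pair of libraries that shares no library with the one above, so the genes' values can be set side by side. Across 7321 genes compared there 6.86% were at least 2-fold higher and 2.08% lower. Of the 603 genes higher with CHX 582 were measured without it, 511 were above 0 (87.8%, beside 52.1% of the 4773 genes measured in both pairs), 98 were at least 2-fold higher and 0 at least 2-fold lower, with a median of 0.50. Of the 356 lower genes 321 were measured, 294 were below 0 (91.6%, beside 47.9%) and 63 were at least 2-fold lower, with a median of -0.60. The pairs differ in CHX, in the removal of duplicate reads (marked in the names of the files without CHX only) and in the lowest read count listed, and these cannot be told apart.

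Group medians without CHX were near those with CHX for some groups and not for others. Over all 7321 genes compared without CHX the median was 0.14, with 6.86% at least 2-fold higher and 2.08% lower. Each group median covers the members compared without CHX, which are not all the same genes as those compared with it. The ATF4 list had a median of 1.95 without CHX, with 31 of 37 genes at least 2-fold higher, and ASNS had 3.14. Ribosomal proteins had -0.92, with 33 of 78 at least 2-fold lower. Synthetases had 0.92, amino acid carriers 1.05 and DNA replication genes 0.62. Leucine sensing genes had 0.12, with 4 of 32 at least 2-fold higher and 0 lower, and EIF4EBP1 had 1.24. Glycolysis had 0.11 without CHX, chaperones -0.16, the other TOP mRNAs -0.09, nucleolar factors 0.10 and tubulins and actins -0.78. Translation initiation factors had -0.14, proteasome genes -0.21 and cholesterol synthesis -0.52. Cyclins and mitosis genes had 0.27, autophagy genes 0.14, ER folding 0.10 and lysosome and V-ATPase genes 0.01. Over only the members also compared with CHX, leucine sensing genes had -0.06, nucleolar factors -0.03, ER folding -0.06 and lysosome and V-ATPase genes -0.07. Glycolysis then had 0.06 and autophagy genes 0.05. HNRNPA2B1 had 0.41 and ENO1 0.42, NPM1 had -0.57 and EIF2S1 had -0.22. The difference between the pairs has no test with 1 library per condition.

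**Figure D5:**
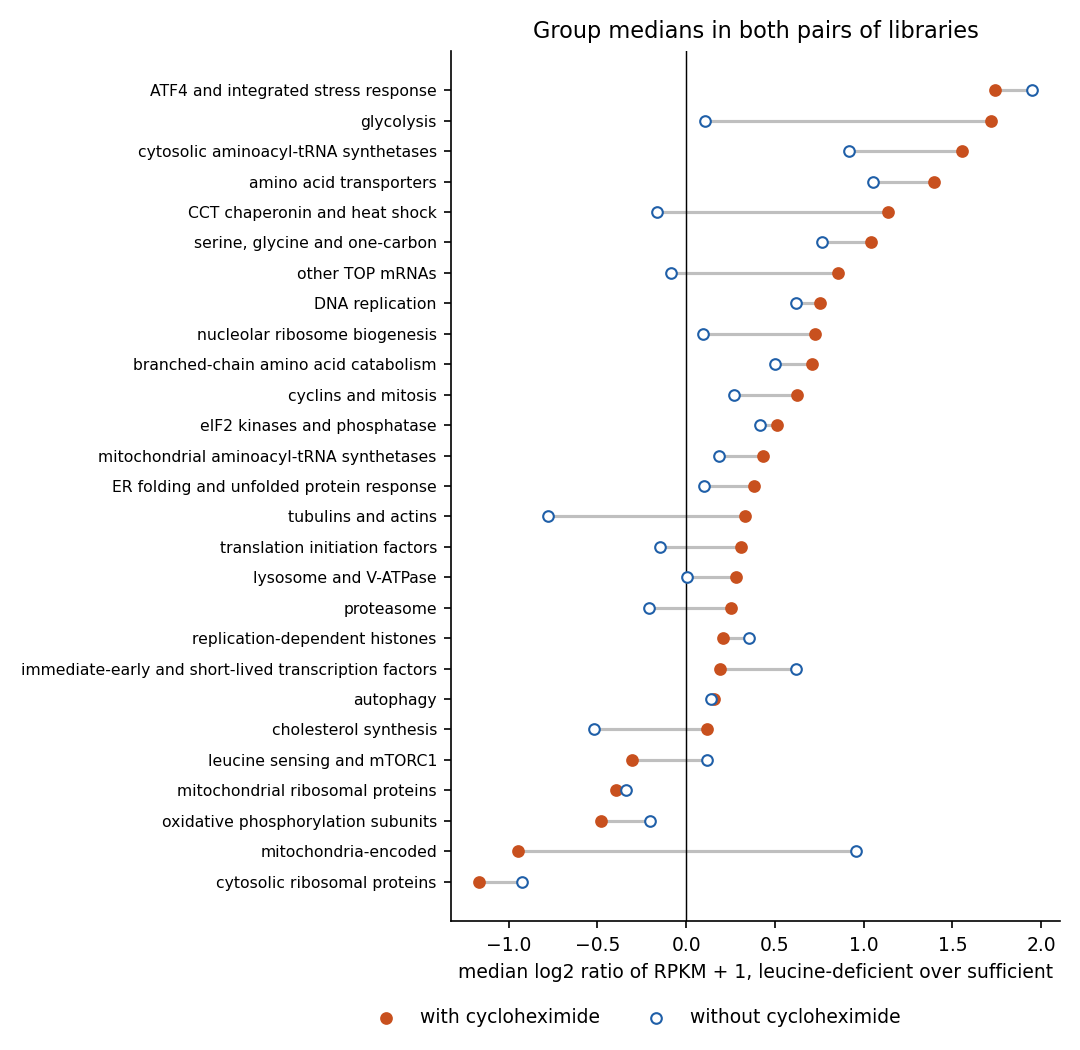
Median log2 ratio of RPKM + 1, leucine-deficient over sufficient (x axis), of 27 gene groups (rows) with CHX (filled) and without it (open), each over the members compared in that pair. The ATF4 list and ribosomal proteins have like medians in both (1.74 and 1.95, -1.17 and -0.92), whereas glycolysis has 1.72 and 0.11, and mitochondria-encoded mRNAs have -0.94 and 0.96.

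The arginine-deficient library with CHX was compared with the same Suff library, so anything particular to that Suff library enters both sets of ratios, and their likeness is not evidence on either. Across 4906 genes 16.6% were at least 2-fold higher and 19.6% lower in Arg-. There the ATF4 list had a median of 1.90, synthetases 2.12, glycolysis 1.95, chaperones 1.62, the other TOP mRNAs 1.25 and ribosomal proteins -0.66, beside -0.23 over all genes. ASNS had 4.73, ATF4 1.04 and SLC7A5 -0.26.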

How the data were processed

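The authors pooled ribosome fractions, digested them with RNase I, sequenced the footprints, removed adaptors, filtered reads on length and trimmed poor bases with Trimmomatic. They mapped the rest with Bowtie, allowing no mismatch, to the transcriptome of GRCh38 and kept unique hits. The submitters' processing notes also name cutadapt. The authors deposited RPKM, 1 value for each Ensembl transcript, and names of the files without CHX mark that duplicate reads were removed there. The annotation release is not given in the sources used here. Coding lengths were taken from GENCODE 44 (96.7% of transcripts matched), and RPKM multiplied by length gave whole reads within 0.01 for 97.3% of them in Suff and 97.4% in Leu-. Ratios are log2((RPKM + 1)/(RPKM in Suff + 1)) and understate changes of low genes. With 1 library per condition nothing was tested, and called means past 2-fold. Members, gene lists and alternatives were chosen with earlier results of these data known. Named genes were the 12 highest and 12 lowest with at least 128 reads in both libraries, the extremes and densest members of each list, the 10 densest genes and a fixed set of regulators; the remaining ones were chosen after their values were seen. 1 gene that this rule names is not reported here. Counting errors on the log2 scale come from the square root of the summed reciprocals of both read counts. The scripts were tested on simulated data. Alternatives changed the pseudocount, minimum, transcript choice, centring, absent genes, depth, and groups by length or GC. Methionine-deficient and Arg- libraries without CHX were not used here, nor was Met- with CHX. The tools were pandas 2.3.3, numpy 2.4.6, matplotlib 3.10.9 and scipy 1.17.1, run in Python 3.11.15.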

Additional observations from a re-analysis of the deposited data

Results flagged for a closer look

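The mRNAs encoded by the mitochondrial genome moved in opposite directions in the 2 pairs of libraries. All 7 were lower in Leu- with CHX, with a median log2 ratio of -0.94, and all 7 were higher in Leu- without CHX, with a median of 0.96. MT-ATP6 had -2.42 with CHX and 0.96 without it, and MT-ND4L had -1.52 and 1.59. The difference was not tested, since each condition was 1 library.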

How the results depend on the processing

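No paired analysis was possible because each condition had 1 library. Genes at least 2-fold higher numbered 603 and ranged from 436 to 640 over the alternatives that kept the number within 1.5 times. They numbered 369 of 3095 genes with a minimum mean RPKM of 50 and 1579 of 6028 with genes listed in either library, absent ones at 0, since the Leu- library listed more genes. Genes at least 2-fold lower numbered 356 and ranged from 279 to 380. The median log2 ratio of 0.02 became -0.091 with the minimum of 50, 0.21 with genes of either library and 0.074 with Leu- thinned at random to the depth of Suff. All 27 list medians stayed within their 95% order-statistic intervals, which are wide for short lists, under the 8 alternatives other than centring within quintiles. With genes of either library the median was 1.40 beside 0.19 for immediate-early factors, 1.79 beside 0.71 for branched-chain amino acid catabolism and 0.95 beside 0.28 for lysosome and V-ATPase. With the minimum of 50 it was 1.30 for branched-chain amino acid catabolism, 0.37 beside 1.04 for serine, glycine and one-carbon metabolism and -0.079 beside 0.12 for cholesterol synthesis. No other list median moved by more than 0.5 under any of the 10 alternatives. Centring within quintiles of coding length, chosen after seeing the data, moved 4 of them and reversed 1. It gave -0.83 for cytosolic ribosomal proteins, -0.13 for mitochondrial ribosomal proteins, -0.057 for oxidative phosphorylation, 0.64 for histones and, with a changed sign, -0.031 for ER folding and the unfolded protein response, beside 0.38. Cholesterol synthesis also changed sign, to -0.032 beside 0.12, but stayed within its interval. Centring within quintiles of GC content, also added later, moved none of the 27. No named gene past 2-fold changed sign under any of the 10 alternatives that gave it a value, but 147 of 189 named genes moved by more than their counting interval with length centring and 101 of 189 with GC centring. At a minimum of 64 reads, genes rarer than this in Suff have only a bound, and counting errors leave out the spread between cultures.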
